A study of Mus musculus with 26 samples.

Results

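The 8 genes described here are 4 Dppa genes (Dppa2, Dppa4, Dppa3 and Dppa5a) and 4 genes of the 2-cell stage (Zscan4c, Zscan4d, Zfp352 and Usp17la), out of 38660 genes with a RefSeq start site in mm10. For each gene and each of the 12 deposited tables of enriched regions, the region with the most overlap with the 1.5 kb either side of the start site was kept. Mouse embryonic stem cells (mESCs) grown in serum and LIF were profiled by reChIP, in which chromatin pulled down with one antibody is released and pulled down again with a second. K4-K27 denotes H3K4me3 followed by H3K27me3, K27-K4 denotes the reverse order, and the in-line totals are the 10% of material set aside after the first ChIP. E14 cells gave replicates 1 and 2 of each ChIP with 1 IgG-IgG library. The Dppa2/4 wild type (WT) clones 57 and 58 and the Dppa2/4 double knockout (DKO) clones 43 and 53 gave 1 library of each ChIP per clone, with 1 IgG-IgG library from WT clone 57. Each clone is a single line, so differences between genotypes rest on 2 clones per arm, and p-values measure the spread between these clones or, in E14 cells, between the 2 replicates. E14 replicate 1, E14 replicate 2 and the clones carry separate sequencing batch labels, so that a difference between E14 cells and clones cannot be told apart from batch.

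DPPA2 and DPPA4 are paired nuclear proteins of pluripotent cells that bind CpG-rich promoters and help keep H3K4me3 and H3K27me3 together at developmental genes. They also act upstream of DUX, the factor that switches on genes of the 2-cell embryo in the rare embryonic stem cells that pass through a 2-cell-like state. DPPA3 (Stella) is a maternal factor that protects DNA methylation in the zygote, DPPA5A is an RNA-binding protein of pluripotent cells, ZSCAN4 proteins maintain telomeres in 2-cell-like cells, Zfp352 encodes a zinc finger protein of the early embryo, and Usp17la encodes a deubiquitinase. Bivalent promoters carry the active mark H3K4me3 and the Polycomb mark H3K27me3 on the same chromatin.

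Library depth ran from 6741245 to 47903464 reads. Values are log2 of the RPM per kb of region, RPM being reads scaled to the depth of the library, and IgG-IgG was not subtracted. The stem cell label was checked with 10 embryonic stem cell factors, all 10 of which had a total H3K4me3 region in E14, WT and DKO tables, against 41.3%, 47.6% and 44.7% of all genes. A total H3K27me3 region was listed for 1, 3 and 1 of them, beside 11.03%, 13.95% and 16.4% of all genes. Of 8 lineage factors, 6 had a total H3K27me3 region in E14 cells, 8 in WT and 7 in DKO clones.

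The promoters of the 4 2-cell stage genes are shown first because they gave no region in any table. The 250 bases before each start site are given 5′ to 3′ from RefSeq (GRCm38.p6). Zscan4c (chr7:11005495-11005744, plus strand) and Zscan4d (chr7:11166149-11166398, minus strand) are printed with the bases that differ between them in capitals. For Zfp352 (chr4:90218570-90218819, plus strand) capitals mark exact copies of a repeated 12-base word, and for Usp17la (chr7:104856766-104857015, plus strand) they mark the CG dinucleotide.
Zscan4c: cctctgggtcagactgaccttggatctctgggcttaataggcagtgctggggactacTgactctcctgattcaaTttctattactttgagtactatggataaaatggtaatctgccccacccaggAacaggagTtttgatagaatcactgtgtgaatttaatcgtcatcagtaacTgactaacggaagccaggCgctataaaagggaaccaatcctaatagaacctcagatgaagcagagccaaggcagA
Zscan4d: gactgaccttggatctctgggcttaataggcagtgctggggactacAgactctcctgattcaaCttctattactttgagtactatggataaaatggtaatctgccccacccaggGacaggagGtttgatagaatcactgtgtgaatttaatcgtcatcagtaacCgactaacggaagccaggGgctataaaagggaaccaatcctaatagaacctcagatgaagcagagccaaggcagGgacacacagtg
Zfp352: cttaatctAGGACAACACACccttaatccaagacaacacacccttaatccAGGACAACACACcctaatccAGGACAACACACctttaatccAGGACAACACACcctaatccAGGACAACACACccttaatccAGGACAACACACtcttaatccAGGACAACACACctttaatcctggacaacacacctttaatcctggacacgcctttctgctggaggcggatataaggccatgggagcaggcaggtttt
Usp17la: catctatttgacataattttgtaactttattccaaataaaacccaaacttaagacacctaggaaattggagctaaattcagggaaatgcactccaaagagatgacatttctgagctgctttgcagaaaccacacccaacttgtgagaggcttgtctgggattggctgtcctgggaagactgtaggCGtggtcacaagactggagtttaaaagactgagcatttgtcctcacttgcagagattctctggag

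The Zscan4c and Zscan4d stretches aligned over 239 bases, of which 232 were identical (97.1%). The Zfp352 stretch held 7 copies of the unit AGGACAACACAC, a count that no other 12-base word in it exceeds though an overlapping word ties with it, a feature looked for after the sequence was seen. All 4 stretches lay below the median in CpG, with 3 CG dinucleotides in Zscan4c, 3 in Zscan4d, 2 in Zfp352 and 1 in Usp17la, against a median of 6 over 32851 promoter stretches of the same length. Their observed-to-expected CpG ratios were 0.239, 0.224, 0.167 and 0.0893, against a median of 0.374. Of all stretches, 35.4%, 33.2%, 24.9% and 13.4% had a lower ratio, so these values are below the median but not at the bottom of the range. The octamer ATGCAAAT, searched on both strands, was in none of the 4 and in 1.60% of all stretches. The palindromic DUX-type motif, likewise on both strands, was also in none of the 4 and in 0.0304% of all stretches.

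No region of any of the 12 tables lay within 1.5 kb of the start of Zscan4c, Zscan4d, Zfp352 or Usp17la, and none did within 5 kb. The nearest region of any table was 47.9 kb away for Zscan4c, 112 kb for Zscan4d, 66.7 kb for Zfp352 and 119 kb for Usp17la. The median distances over the tables were 509.7 kb, 670.0 kb, 146 kb and 180 kb. These genes therefore have no deposited value in E14, WT or DKO libraries, for the totals or either reChIP, and their levels of the marks were not analysed here. The authors kept alignments with a mapping quality above 20, which repeated sequence can lose. Of the 75-base stretches (the length of the reads) in the 300-base window around each start, 38.9% occurred once in the genome for Zscan4c, 71.7% for Zscan4d and 82.3% for Usp17la, whereas 90.9% of all windows consisted entirely of stretches that occur once. The part of repeats in the missing regions was not tested. At Zfp352, 100% of the stretches occurred once, and no region was listed there either.

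Other genes of the 2-cell stage were also rarely listed. Of 20 such genes, 19 had a start site, and between 0 and 2 of them had a region in any one table. Over all genes the listed share ranged from 11.03% in the E14 total H3K27me3 table to 53.5% in the E14 K27-K4 table. By contrast, 12 of 14 regulators of the 2-cell state, the factors that hold that state back or release it, had a total H3K4me3 region in E14 cells, and all 14 did in WT and in DKO clones. None of the 14 had a total H3K27me3 region in E14, WT or DKO tables.

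**Figure D1:**
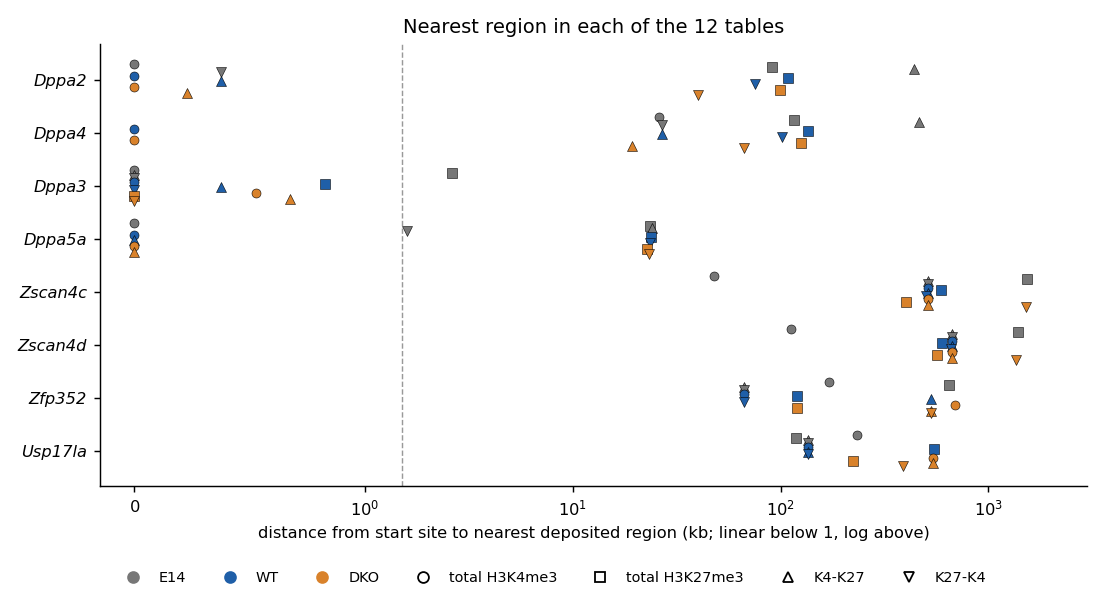
Distance in kb (linear below 1, logarithmic above) from the start site of each gene to the nearest deposited region in each of the 12 tables, coloured by cells, with the marker shape giving the ChIP; the dashed line is at 1.5 kb. Each Dppa gene has a region at 0 in at least 2 tables, with other tables as far as 466 kb for Dppa4 and 439 kb for Dppa2, while no point of Zscan4c, Zscan4d, Zfp352 or Usp17la lies nearer than 47.9 kb.

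All 4 Dppa genes had a region. A listed reChIP region need not be one of the bivalent peaks that the study reports. Total H3K4me3 listed Dppa2, Dppa3 and Dppa5a in E14 cells and all 4 genes in WT and in DKO clones. Total H3K27me3 listed none in E14 cells and Dppa3 alone in WT and DKO clones. K4-K27 listed Dppa3 in E14 cells and Dppa2, Dppa3 and Dppa5a in both sets of clones, and K27-K4 listed Dppa2 and Dppa3 in E14 cells and Dppa3 alone in both sets of clones. Dppa4 had no reChIP region in any table. The Dppa3 listings depended on the window. The E14 total H3K27me3 table has a region 2.62 kb upstream of its start (chr6:122621251-122623800), which is listed at 5 kb, and the WT total H3K27me3 region lies 0.827 kb downstream and is not listed at 0.5 kb.

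Dppa2 and Dppa4 are the genes targeted in the DKO clones and stand beside each other on chromosome 16, with start sites at 48310274 and 48283735 on the plus strand. At Dppa2 (WT region chr16:48309301-48312450), total H3K4me3 was 1.904 and 0.77 in WT clones 57 and 58 and 2.08 and 1.34 in DKO clones 43 and 53. At Dppa4 (chr16:48283051-48286200) it was 2.34 and 1.45 in the WT clones and 2.39 and 1.56 in the DKO clones. The genotypes overlapped at both genes, so the chromatin around both start sites was still recovered in the knockout clones. The deletion itself is not located by the labels, and these values do not check it. Total H3K27me3 at the Dppa2 region was -3.05 and -3.30 in WT and -3.26 and -2.49 in DKO clones, from 5 to 19 reads a library. At the Dppa4 region it was -2.86 and -3.03 in WT and -3.04 and -2.65 in DKO clones. In E14 cells the Dppa2 region (chr16:48309751-48312750) had total H3K4me3 values of 0.22 and 0.95 in replicates 1 and 2, with total H3K27me3 at -2.20 and -2.77. Dppa4 had no E14 region and so no E14 value.

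Dppa5a (start at 78368199 of chromosome 9, minus strand) had the same pattern. Its WT region (chr9:78367501-78371250) gave total H3K4me3 of 1.39 and 0.54 in WT and 1.36 and 0.81 in DKO clones. Total H3K27me3 there was -3.11 and -3.29 in WT and -4.52 and -3.08 in DKO clones, below the IgG-IgG value of -1.483. In E14 cells the region chr9:78367501-78369150 had total H3K4me3 values of 0.46 and 0.73, with total H3K27me3 at -4.34 and -2.72, the lower from 1 read.

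Dppa3 (start at 122626424 of chromosome 6, plus strand) was the gene with both marks. At its WT region (chr6:122626201-122629350) total H3K4me3 was 1.93 and 0.97 in WT and 0.68 and 0.50 in DKO clones, so both DKO values lay below both WT values. Total H3K27me3 at the same region was 0.16 and -0.23 in WT and 0.78 and 0.70 in DKO clones, so both DKO values lay above both WT values. In bulk chromatin, more cells with a mark and more of the mark per cell cannot be told apart. In E14 cells (chr6:122626201-122629050) total H3K4me3 was 0.41 and 0.77 and total H3K27me3 was -0.49 and -0.75. IgG-IgG was -1.55 in WT clone 57 and -1.65 in E14 cells at these regions, below every other value given for Dppa3.

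**Figure D2:**
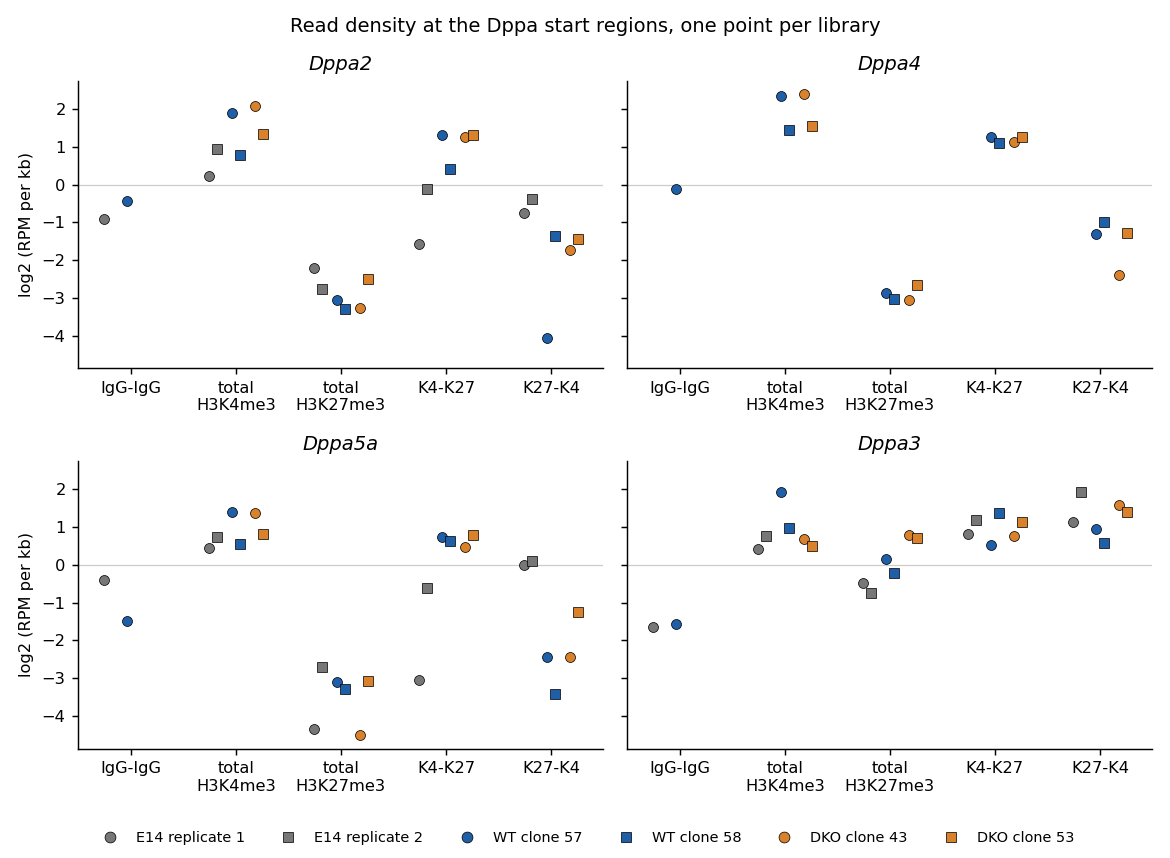
Read density (log2 of the RPM per kb) of each library at the total H3K4me3 region of the 4 Dppa genes, from the E14 table for E14 libraries (grey) and the WT table for WT (blue) and DKO (orange) libraries. At Dppa2, Dppa4 and Dppa5a total H3K27me3 lies between -4.52 and -2.20 beside total H3K4me3 above 0, while at Dppa3 all 4 ChIPs lie above IgG-IgG.

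The balance of the marks was tested as total H3K4me3 minus total H3K27me3 with limma and Benjamini-Hochberg adjustment over all regions of the tables, a region being called at a log2 difference above 1 in size and an adjusted p under 0.05. In E14 cells Dppa2, Dppa5a and Dppa3 entered this test through the H3K4me3 table alone, in which 80.8% of the 21970 regions were called higher, so the direction of their calls is favoured by that choice and is given as a description. The difference, beside a median of 2.25 over the H3K4me3 table, was 3.07 at Dppa2 (SE 0.70, limma adjusted p = 0.00121), 4.12 at Dppa5a (SE 0.97, limma adjusted p = 0.00158) and 1.21 at Dppa3 (SE 0.39, limma adjusted p = 0.0111). The Dppa3 call is a close one. Where 1 library is left out, the lone library of that arm is assumed to vary like the other group. The call was lost on leaving out E14 total H3K27me3 replicate 1 (limma adjusted p = 0.0505), replicate 2 (limma adjusted p = 0.109) or E14 total H3K4me3 replicate 2 (limma adjusted p = 0.0662).

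In the clones, where this test was added after the data were seen, H3K4me3 was called higher at Dppa2, Dppa4 and Dppa5a in both genotypes. These 3 genes also had a region in the H3K4me3 tables and none in the H3K27me3 tables, and 68.2% of the regions of the WT and 80.5% of those of the DKO H3K4me3 table were called higher, so the direction again follows in part from the choice. Among the 3 genes the difference ran from 4.16 (Dppa5a, SE 0.95, limma adjusted p = 7.29e-05) to 4.84 (Dppa4, SE 0.79, limma adjusted p = 1.07e-08) in WT clones. In DKO clones it ran from 4.12 (Dppa2, SE 0.66, limma adjusted p = 6.49e-05) to 4.83 (Dppa4, SE 0.54, limma adjusted p = 1.23e-06). At Dppa3 the difference in WT clones was 1.481 (SE 0.70, limma adjusted p = 0.0576) at the WT region, and was not called. With the clone as a block it was called (limma adjusted p = 0.0224), as it was without WT total H3K4me3 clone 58 (1.96, limma adjusted p = 0.00102). Leaving out each library gave 1.00 to 1.96, with limma adjusted p from 0.00102 to 0.488. At the short WT H3K27me3 region the difference was 1.32 (SE 0.84, limma adjusted p = 0.157), which was likewise called with the block (limma adjusted p = 0.00532) and without WT total H3K4me3 clone 58 (limma adjusted p = 0.0111). At the H3K4me3 region of the DKO table (chr6:122626951-122629200) the DKO clones gave -0.09 (SE 0.28, limma adjusted p = 0.761). Over the wider H3K27me3 region of the DKO table the DKO clones gave -1.21 (SE 0.38, limma adjusted p = 0.00991), called lower, as were 62.5% of the regions of that table. That call was lost without DKO total H3K27me3 clone 43 (limma adjusted p = 0.0543).

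The change of the Dppa3 balance between genotypes was itself tested as an interaction of genotype and mark, also added after the data were seen. At the WT H3K4me3 region, H3K4me3 minus H3K27me3 was lower in DKO than in WT clones by a log2 difference of -1.63 (95% interval -3.12 to -0.14, limma adjusted p = 0.632, and 0.0321 before adjustment). At the DKO H3K4me3 region it was -1.79 (95% interval -3.27 to -0.32, limma adjusted p = 0.547, and 0.0183 before adjustment). At the WT and DKO H3K27me3 regions it was -1.40 (95% interval -3.004 to 0.21, limma adjusted p = 0.796) and -1.44 (95% interval -2.96 to 0.07, limma adjusted p = 0.736), and these intervals include 0. None of the 4 passed, and of 117190 regions 0 (0%) were called in this interaction by limma, with 8355 at an unadjusted p under 0.05. At Dppa2, Dppa4 and Dppa5a the interaction lay between -0.02 and 0.72.

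In the clones, the values of both reChIP orders at Dppa2 and Dppa5a are given at regions that the K4-K27 tables list and the K27-K4 tables do not, so a high K4-K27 value is part of how these regions were chosen. At Dppa2 (WT K4-K27 region chr16:48310651-48312150), K4-K27 was 1.88 and 1.35 in WT and 2.13 and 1.98 in DKO clones. K27-K4 at the same region was -2.99 and -1.22 in WT and -0.96 and -0.98 in DKO clones. IgG-IgG was -0.02, so K4-K27 lay above it and K27-K4 below it in every clone. The K27-K4 values rest on 3 and 11 reads in WT and on 18 and 13 in DKO clones, and IgG-IgG on 22. In clones 58, 43 and 53 the 95% counting interval of K27-K4 overlaps that of IgG-IgG, which comes from WT clone 57 alone. At Dppa5a (chr9:78367501-78368850), K4-K27 was 2.00 and 1.79 in WT and 1.45 and 1.36 in DKO clones. K27-K4 was -2.83 and -2.94 in WT and -1.66 and -0.14 in DKO clones, with IgG-IgG at -2.33. The K27-K4 values rest on 3 reads in each WT library and on 10 and 21 in the DKO libraries, and IgG-IgG on 4 reads, so the WT values and IgG-IgG lie within counting error of each other. The interaction of genotype and reChIP order at this region was 2.48 (95% interval -0.28 to 5.24, limma adjusted p = 0.773) and did not pass.

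At the Dppa4 H3K4me3 region, K4-K27 was 1.27 and 1.09 in WT and 1.14 and 1.26 in DKO clones, against -0.13 for IgG-IgG. K27-K4 was -1.32 and -0.99 in WT and -2.39 and -1.29 in DKO clones, below IgG-IgG in every clone. These K27-K4 values rest on 14 to 27 reads a library, and the 95% counting intervals of clone 58 and IgG-IgG overlap.

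As K27-K4 minus K4-K27, with limma and again added after the data were seen, Dppa2 and Dppa5a were called lower in both genotypes. Both genes were in the K4-K27 tables and not in the K27-K4 tables, so this choice favours a lower K27-K4 value, and 37.7% of the regions of the WT and 46.7% of those of the DKO K4-K27 table were called lower. Medians over those tables were -1.44 and -1.53. In WT clones the difference was -3.72 at Dppa2 (SE 1.22, limma adjusted p = 0.0136) and -4.78 at Dppa5a (SE 1.20, limma adjusted p = 0.000663). Both WT calls were lost without K4-K27 of clone 57 (limma adjusted p = 0.142 and 0.0807). The Dppa2 call was also lost without K27-K4 of clone 57 (limma adjusted p = 0.0974) or of clone 58 (limma adjusted p = 0.0521). In DKO clones the difference was -3.06 at Dppa2 (SE 0.65, limma adjusted p = 0.000582) and -2.30 at Dppa5a (SE 0.68, limma adjusted p = 0.0108). The Dppa5a call was lost without K27-K4 of clone 43 (limma adjusted p = 0.192) and after centring each library on its median (limma adjusted p = 0.0678).

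At Dppa3 neither order was called over the other. At the WT K27-K4 region (chr6:122626201-122628000), K4-K27 was 1.07 and 1.40 in WT and 0.51 and 1.04 in DKO clones, and K27-K4 was 0.84 and 0.55 in WT and 1.66 and 1.36 in DKO clones. All 8 values lay above the IgG-IgG value of -2.42. K27-K4 minus K4-K27 was -0.54 there in WT clones (SE 0.71, limma adjusted p = 0.602) and 0.39 at the DKO K27-K4 region in DKO clones (SE 0.51, limma adjusted p = 0.579).

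Among the other lists, K4-K27 listed all 14 regulators of the 2-cell state in WT and in DKO clones, against 45.96% and 45.0% of all genes. K27-K4 listed 3 and 1 of them, against 27.99% and 26.7%. In E14 cells the counts stood the other way, with 7 of 14 in K4-K27 and 13 of 14 in K27-K4, against 46.4% and 53.5% of all genes. Of the 10 embryonic stem cell factors, K4-K27 listed 8 in E14 cells and 10 in both sets of clones, and K27-K4 listed 10, 5 and 3 in E14, WT and DKO tables. K4-K27 listed 8, 8 and 7 of the 8 lineage factors, and K27-K4 all 8 in each.

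In E14 cells, at Dppa3 (chr6:122626201-122629500), K4-K27 was 0.72 and 1.02 and K27-K4 0.98 and 1.75 in replicates 1 and 2, with IgG-IgG at -1.86. At the Dppa2 K27-K4 region (chr16:48310651-48311550), K4-K27 was -1.58 and 0.66 and K27-K4 0.72 and 0.32. Replicate 1 rested there on 3 K4-K27 and 10 K27-K4 reads, with IgG-IgG at -0.67 from 5 reads. At the E14 Dppa5a H3K4me3 region, where no E14 reChIP table lists a region, K4-K27 was -3.04 and -0.62 and K27-K4 -0.02 and 0.10. IgG-IgG was -0.40 there from 11 reads, and K4-K27 of replicate 1 rested on 2 reads. Replicate 1 of K4-K27 was thus the lowest reChIP value at each of these 3 genes. K27-K4 minus K4-K27 was 0.50 at Dppa3 (95% interval -1.38 to 2.37, limma adjusted p = 0.805) and 0.98 at Dppa2 (95% interval -0.62 to 2.58, limma adjusted p = 0.799), beside a median of 0.67 over all 38918 regions. Dppa2 entered through the K27-K4 table alone, which favours a higher K27-K4 value, and the median over that table was 0.70. No region (0%) was called by limma in this comparison, with 1074 at an unadjusted p under 0.05. With the replicate as a block, which takes up the batch label that libraries of 1 number share, 2499 regions were called, and neither Dppa3 (limma adjusted p = 0.349) nor Dppa2 (limma adjusted p = 0.215) was among them.

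**Figure D3:**
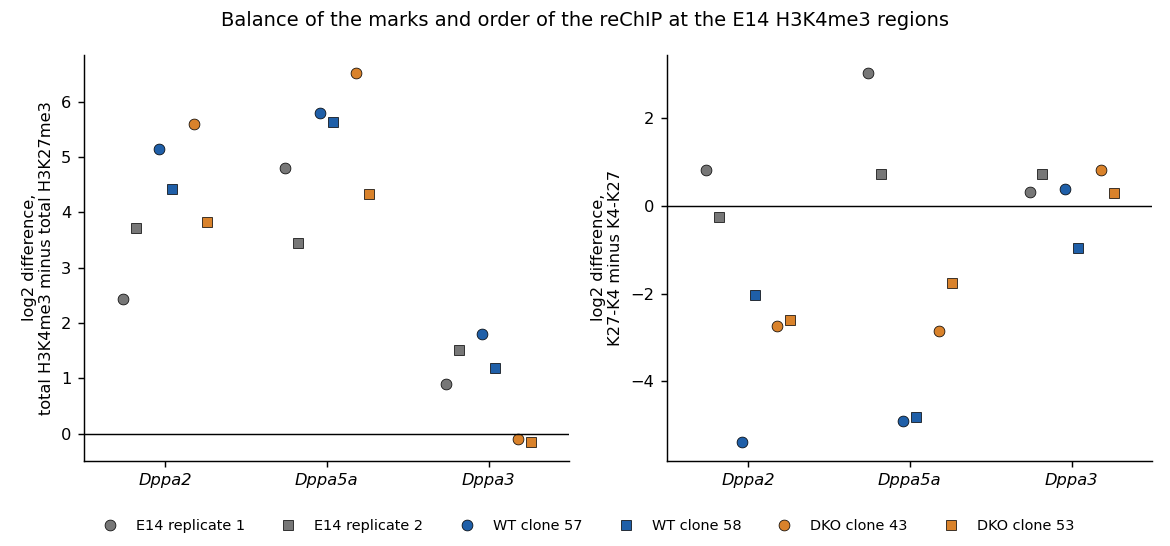
Log2 differences between ChIPs of the same replicate or clone at the E14 total H3K4me3 regions of Dppa2, Dppa5a and Dppa3, 1 point per replicate or clone; left, total H3K4me3 minus total H3K27me3, and right, K27-K4 minus K4-K27. On the left the DKO points of Dppa3 lie just below 0 (-0.10 and -0.15), and on the right the WT and DKO points of Dppa2 and Dppa5a all lie below 0.

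DKO and WT clones were then compared for each ChIP to ask whether marks at these genes differ without DPPA2 and DPPA4. WT regions were called in WT clones and DKO regions in DKO clones, which favours the genotype that gave the region. No Dppa gene was called by limma in any of the 4 comparisons. In total H3K4me3, 0 of 4 genes were called, against 2.72% of 64063 regions. The DKO minus WT difference was 0.37 at Dppa2 (95% interval -0.98 to 1.72, limma adjusted p = 1.00), 0.08 at Dppa4 (95% interval -1.42 to 1.58, limma adjusted p = 1.00) and 0.12 at Dppa5a (95% interval -1.04 to 1.28, limma adjusted p = 1.00). These intervals reach beyond 1 in size, so a 2-fold difference lies within them. All 3 signs turned on leaving out WT clone 58.

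At Dppa3 the difference in total H3K4me3 was -0.86 (95% interval -2.02 to 0.30, limma adjusted p = 0.802, and 0.147 before adjustment). The adjusted p depended on the scaling. After centring it was below 0.05 at the WT region (-0.89, limma adjusted p = 0.0283) and at the DKO region (-0.90, limma adjusted p = 0.0142). After quantile normalization it was 0.0508 and 0.0379 by limma, and under either scaling the difference stayed under the log2 size of 1 that a call needs. It was -1.34 without WT clone 58 (limma adjusted p = 0.0498, in a range of 0.0498 to 1.00 over the clones left out). The fit without WT clone 58 passes the threshold but has 1 WT library, so its spread comes from the DKO clones and from the moderation across regions, with none from WT. In total H3K27me3, where 2.75% of 53286 regions were called, Dppa3 was the only gene with a region and 0 of 1 was called. Its DKO minus WT difference was 0.81 at the DKO region (95% interval 0.0023 to 1.62, limma adjusted p = 0.323, and 0.0494 before adjustment) and 0.80 at the short WT region (95% interval -0.02 to 1.61, limma adjusted p = 0.340, and 0.0554 before adjustment). The DKO region was called in DKO clones, which favours a higher DKO value there. Leaving out 1 clone gave 0.43 to 1.16 at the short WT region and 0.55 to 1.08 at the DKO region. The value of 1.16 was without WT clone 58, with the same limit of 1 WT library.

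In K4-K27, 0 of 3 genes were called, against 1.19% of 53855 regions. The difference was 0.44 at Dppa2 (95% interval -0.75 to 1.63, limma adjusted p = 0.880) and -0.49 at Dppa5a (95% interval -1.72 to 0.74, limma adjusted p = 0.860). At Dppa3 it was -0.34 (95% interval -2.15 to 1.47) at the WT region (chr6:122624551-122625750), which lies upstream of the start. It was 0.22 (95% interval -1.11 to 1.55) at the DKO region (chr6:122627101-122628900), which lies downstream. Leaving out 1 clone gave -0.82 to 0.14 and -0.46 to 0.89, so neither sign is settled. The choice of region was near a tie in WT clones, with 827 bases of overlap upstream and 824 downstream, so these 2 values stand for different stretches of the promoter.

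In K27-K4, where 2.26% of 59260 regions were called, 0 of 1 gene was called. At Dppa3 both DKO clones lay above both WT clones, with a difference of 0.82 at the WT region (95% interval -0.03 to 1.67, limma adjusted p = 0.284, and 0.0597 before adjustment) and 0.78 at the DKO region (95% interval -0.20 to 1.76, limma adjusted p = 0.375). The choice of the DKO region again favours a higher DKO value.

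**Figure D4:**
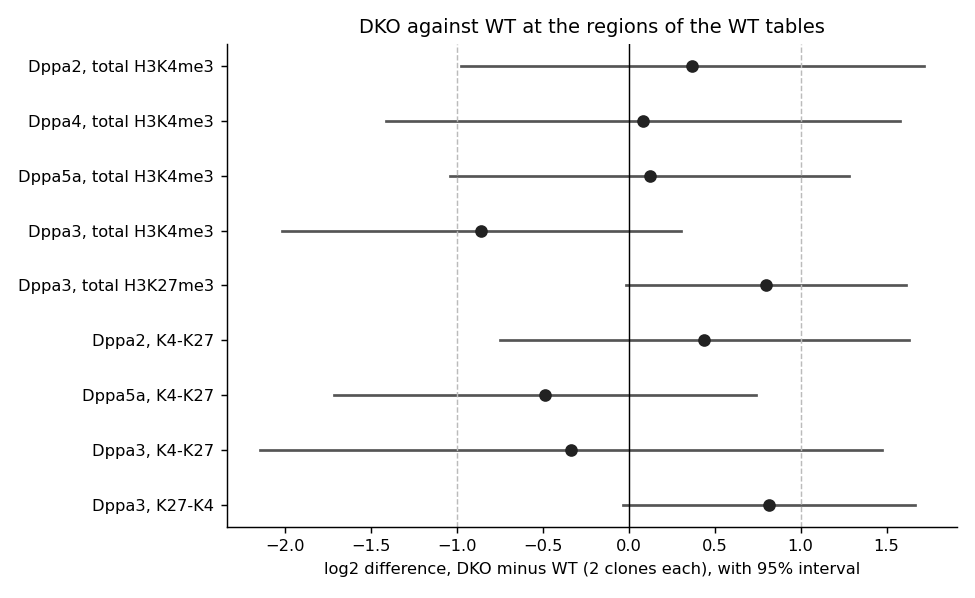
Log2 difference, DKO minus WT (2 clones each), at the regions of the WT tables with its 95% interval from limma; dashed lines mark -1 and 1. Every interval includes 0, and those of Dppa3 for total H3K27me3 and K27-K4 begin just below it (-0.02 and -0.03).

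The extent of the regions also differed between the WT and DKO tables. In total H3K4me3 the Dppa5a region was 3750 bp in the WT and 12150 bp in the DKO table, the Dppa2 region 3150 and 6450 bp and the Dppa4 region 3150 and 3600 bp. The whole DKO H3K4me3 table was also wider, with a median of 1800 against 1650 bp and with 1.16% against 0.188% of regions at 10 kb or more. In K4-K27 the widths were 1500 and 1650 bp at Dppa2 and 1350 and 1200 bp at Dppa5a. At Dppa3, total H3K27me3 covered 300 bp downstream of the start in the WT table (chr6:122627251-122627550) and 11250 bp in the DKO table (chr6:122618251-122629500), which reaches from -8.17 kb to 3.08 kb of the start. K27-K4 covered 1800 bp in the WT table and 11100 bp (chr6:122618401-122629500) in the DKO table. Regions of 10 kb or more made up 1.17% of the WT and 1.33% of the DKO H3K27me3 regions, and 0.893% and 1.41% of the K27-K4 regions. Total H3K4me3 at Dppa3 went from 3150 bp that contain the start in WT to 2250 bp that begin 0.527 kb after it in DKO clones. These extents come from the authors' peak calls and have no replicate error of their own. Over the whole 11250 bp, total H3K27me3 was 0.39 and -0.14 in WT and 1.07 and 0.81 in DKO clones, which gives the 0.81 difference above. The WT mean there already lay 1.09 above IgG-IgG, and the E14 total H3K27me3 region chr6:122621251-122623800 lies within this span.

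**Figure D5:**
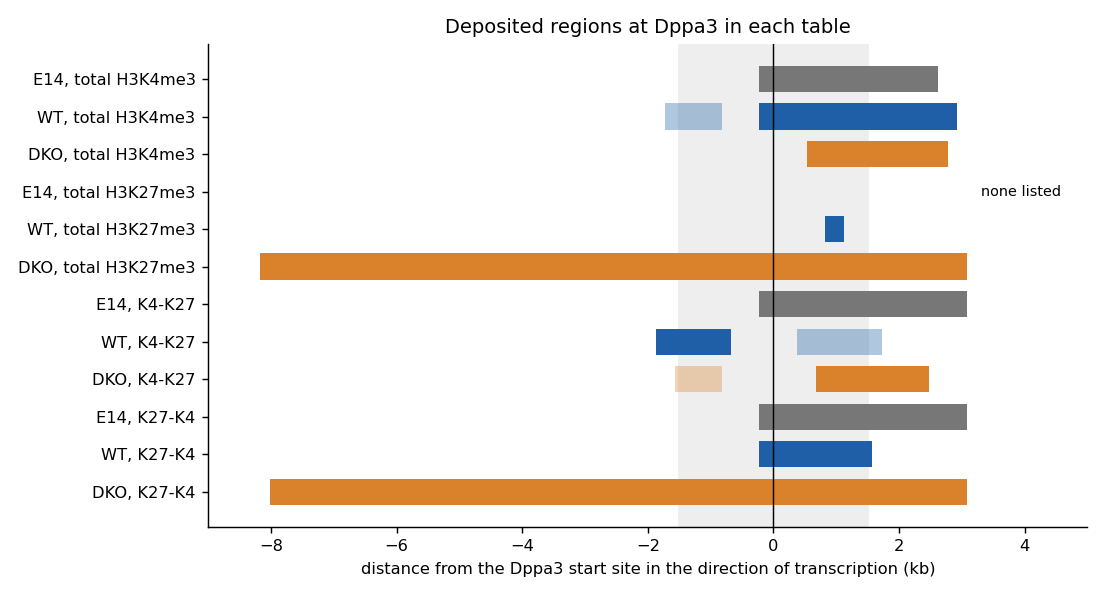
Span of each deposited region that touches the 1.5 kb either side (grey band) of the Dppa3 start site, in kb from the start in the direction of transcription, by table; full colour marks the region kept and pale colour the others. The DKO total H3K27me3 and K27-K4 regions reach to -8.17 and -8.02 kb, while no WT region reaches beyond -1.87 kb.

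None of the other lists held a gene called in total H3K4me3, K4-K27 or K27-K4 between DKO and WT clones, and of the 23 genes whose start lies within 100 kb of one of the 8, at most 7 had a region and none was called in any ChIP. In total H3K27me3, 1 of 3 embryonic stem cell factors with a region was called, Tbx3, a T-box factor of the naive state, at 1.29 in WT and -0.42 in DKO clones (limma log2 difference -1.71, SE 0.41, adjusted p = 0.00627). With all 16 clone libraries of the 4 ChIPs in 1 fit, or after centring, no region was called in total H3K27me3 by limma. The regulators of the 2-cell state had medians of 0.01 in total H3K4me3 and -0.16 in K4-K27 over 14 genes each, beside 0.13 and -0.01 over all regions. In K27-K4 the median was -0.68 over the 3 with a region, beside -0.15. Other lists had similar K27-K4 medians, with -0.64 over 3 genes within 100 kb, -0.52 over 5 embryonic stem cell factors and -0.51 over 8 lineage factors. The 1 other 2-cell stage gene with a region had -0.14.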

How the data were processed

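Processed tables of 26 libraries were used, 9 from E14 cells and 17 from the clones. According to the submitters' processing notes and the study's methods, reads were trimmed (Trim Galore 0.6.6), aligned to mm10 (BWA 0.7.13) and marked for duplicates (Picard 2.6.0), and regions were called against IgG-IgG. The E14 K4-K27 and K27-K4 regions used here number 24540 and 36235, more than the reChIP peaks that the study reports. The values that the authors deposited are log2 RPM per kb of region, from reads with a mapping quality above 20 extended by 200 bp, with duplicates kept. The study's methods state that its H3K4me3 antibody may also detect H3K4me2. All values were whole numbers of reads (tolerance 0.02), with 0 reads entered as 0.9. Another 32 columns belong to no sample here and were not used. Start sites, promoters and coordinates are RefSeq GRCm38.p6 (mm10). Of the 8 genes, 4 had a sequence in the promoter table used.

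Groups were compared with limma 3.58.1 (R 4.3.3; lmFit, eBayes with trend and robust estimation), two-sided, over the unique regions of the tables compared, with Benjamini-Hochberg adjustment over all of them. Overlapping regions of different tables were tested separately and are not independent. The authors' own tests used edgeR on read counts not used here. Tests were checked on simulated data, in which the share of large shifts recovered varied widely between comparisons and was lowest for the E14 order and next lowest for the WT balance. Shares of regions called were counted over the table through which a gene entered a test, a choice made after the data were seen. Other calculations used Python 3.11.15, numpy 2.4.6, pandas 2.3.3, biopython 1.88 and matplotlib 3.10.9. The genes and lists were chosen with earlier results of these data known. All 8 genes are named, and genes of other lists only where called between DKO and WT.

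Libraries of 1 clone come from the same cells, and E14 libraries of 1 number share a batch label. Deviations of same-numbered libraries correlated at -0.12 and 0.34 (E14 totals and reChIPs), -0.06 and 0.07 (WT) and -0.10 and 0.03 (DKO). Alternatives were other scalings, filters, variance models, windows and region sets, a replicate block, and leaving out each library.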

Additional observations from a re-analysis of the deposited data

Results flagged for a closer look

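At the Dppa3 total H3K4me3 region of the E14 table, total H3K4me3 minus total H3K27me3 had the same sign in every sample of a group and the opposite sign in another. The mean was 1.21 in E14 replicates (0.90 and 1.52), 1.499 in WT clones (1.81 and 1.19) and -0.13 in DKO clones (-0.10 and -0.15). At the Dppa3 K4-K27 region of the E14 table the means were 1.00, 1.43 and -0.16. At these regions the differences between the groups were not tested. At the overlapping regions of the clone tables, the interaction tests given above for DKO against WT did not pass adjustment.

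At the Dppa5a total H3K4me3 region of the E14 table, K27-K4 minus K4-K27 was above 0 in both E14 replicates (3.02 and 0.72, mean 1.87). It was below 0 in both WT clones (-4.89 and -4.81, mean -4.85) and both DKO clones (-2.85 and -1.76, mean -2.30). The difference between E14 cells and clones was not tested, and the 2 sets carry separate batch labels. The highest value, 3.02, rests on 2 K4-K27 reads and 11 K27-K4 reads in E14 replicate 1.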

How the results depend on the processing

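Counts of genes called are given for each comparison, and differences are log2. Of 100 recomputed counts, 89 stayed within 1.5 times of the reported count. Leaving out 1 library moved the count between 0 and 1 for DKO against WT in total H3K4me3 and in total H3K27me3, between 0 and 2 for the WT reChIP order and between 1 and 2 for the DKO order. Leaving out the lowest quartile of regions removed regions of these genes, so that 1 gene was called for the E14 balance, 0 for the WT balance, 1 for the DKO balance and 0 for the WT order. Centring left 1 gene called for the DKO order. Of single differences, 359 kept their direction and call and 17 turned sign. For total H3K4me3, DKO minus WT, leaving out 1 clone gave ranges of -0.19 to 0.93 and -0.11 to 0.84 at Dppa2 (WT and DKO regions), -0.36 to 0.52 and -0.34 to 0.53 at Dppa4, and -0.31 to 0.55 and -0.34 to 0.57 at Dppa5a, with signs turned without DKO clone 43 (-0.00069 at the Dppa2 WT region, -0.34 and -0.32 at Dppa4, -0.16 and -0.071 at Dppa5a) or WT clone 58. For Dppa3 K4-K27 the ranges were -0.82 to 0.14 (WT region) and -0.46 to 0.89 (DKO region), and the E14 region gave 0.016. For the E14 order, Dppa3 was -0.053 at both regions after centring, and Dppa2 ranged over -0.14 to 2.10. The cause was not tested.

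With the replicate block, 3 genes were called for the E14 balance, 0 for the E14 order, 4 for the WT balance, 2 for the WT order, 4 for the DKO balance and 2 for the DKO order. It added Dppa3 in WT clones, at limma adjusted p = 0.0224 and 0.00532 at its H3K4me3 and H3K27me3 regions, and changed no other call of these genes. Crossed E14 numbers, added after the data were seen, gave 3 genes and 31085 regions called, against 31067 with the numbers as labelled. No paired analysis was possible between DKO and WT because their clones share no number. No Dppa gene has a region with the same coordinates in the WT and DKO tables, and none has an E14 total H3K27me3 region, so those alternatives gave no value.

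Counts over all regions moved more. The reported 1745, 1468, 643 and 1341 regions of DKO against WT (total H3K4me3, total H3K27me3, K4-K27, K27-K4) ranged over 74 to 6018, 0 to 1468, 243 to 7715 and 482 to 8630. The block called 2499 regions for the E14 order and centring 468, against 0. Centring moved the share of called regions that were higher from 68.4% to 53.0% for the WT balance, from 19.4% to 38.9% for the WT order and from 17.0% to 36.2% for the DKO order, and quantile normalization from 1.19% to 14.3% for K27-K4. Centring moved the median over all regions from 0.67 to 0.12 for the E14 order. With windows of 0.5 and 5 kb, 4 genes were still listed in at least 1 table, but single listings changed. At 5 kb Dppa3 entered the E14 total H3K27me3 table and Dppa5a the E14 K27-K4 table, and at 0.5 kb Dppa3 left the WT total H3K27me3, DKO total H3K4me3 and DKO K4-K27 tables. With 2 libraries per arm and few reads for H3K27me3 at Dppa2, Dppa4 and Dppa5a, the tests miss many changes, large ones included, and most of all in the E14 order, so a gene that was not called may still have changed.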
